A study of Taeniopygia guttata with 23 samples.

Results

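H3K27me3 in the auditory forebrain was compared between young male zebra finches (Taeniopygia guttata) reared without an adult male and males reared with one. H3K27me3 is trimethylation of lysine 27 of histone H3, and 4 of the 23 samples of the series carry it at day 67 after hatching, 2 labelled Tutored and 2 labelled Isolate. They were chosen by these labels, not by their values. Tutored males lived from day 21 with 1 adult male and 1 adult female. Isolate males lived from the same day with 2 adult females and no adult male. The labels state no strain, genotype or drug for these birds. They also do not state how many birds stand behind a library or whether replicates came from different birds, so p-values cover only the spread among these libraries, which can be technical. The labels give day 67 and the design text of the series day 65. The labels name a commercial antibody for replicate 1 and only the mark for replicate 2. Another group, labelled P32, was taken at day 32 from the home aviary and has 1 H3K27me3 library, which was used here only to ask where its islands lay.

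The mark is laid down by Polycomb repressive complex 2, whose catalytic subunit is EZH2 or EZH1, and is bound by Polycomb repressive complex 1. It forms short patches and broad domains over silent genes, classically those of developmental transcription factors, and it is removed by the KDM6 demethylases. A region that carries both H3K27me3 and H3K4me3, a mark of promoters, is called bivalent and is known from genes that are silent but can be switched on. In songbirds the auditory forebrain processes heard song, and a young male memorises the song of an adult male during a limited period. The comparison asks whether the Polycomb landscape of this tissue differs in males that had no adult male to hear. Dissected tissue holds many cell types, so fewer cells of a type and less of the mark per cell cannot be told apart. Genes were not assigned to regions, because the gene table at hand belongs to another genome assembly than the one implied by the islands. The tissue could for the same reason not be checked against its marker genes.

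Each library was a list of enriched intervals, called islands, with the number of ChIP reads in each. Tutored replicate 1 had 24321 islands over 151 Mb and Isolate replicate 1 had 23375 over 144 Mb. In replicate 2, Tutored had 31185 islands over 116 Mb and Isolate 29322 over 119 Mb. Isolate thus had fewer islands in both replicates, while the covered length was lower in replicate 1 and higher in replicate 2. Median island length was 4600 bp in both groups of replicate 1, against 2400 bp (Tutored) and 2600 bp (Isolate) in replicate 2. Islands held 42.5 (Tutored) and 39.5 (Isolate) reads per kb in replicate 1 and 71.3 and 71.0 in replicate 2. Replicates therefore stood further apart than the groups did in each of these 4 measures. Both replicate 1 lists carry the same index tag in their deposited names. The lists themselves differ, with a Jaccard index of 0.681 over bases, and which one is Tutored or Isolate rests on the labels in every replicate 1 value.

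Islands of at least 20 kb, the broad domains typical of Polycomb, numbered 769 in Tutored and 687 in Isolate in replicate 1, and 415 and 461 in replicate 2. They made up 15.2% and 14.1% of the covered length in replicate 1 and 10.2% and 11.2% in replicate 2, so the sign of the group difference changed between replicates. The mean share was 12.7% ± 3.54 (SD, n = 2) in Tutored and 12.6% ± 2.07 (SD, n = 2) in Isolate. With 2 libraries against 2, the exact permutation test cannot go below p = 0.333 (two-sided), and it gave p = 0.667 for the number of islands and p = 1 for the covered length. Libraries were not paired by replicate number in this test, so the gap between replicates counted as spread. Reads inside islands totalled 6434132 and 5671633 in Tutored and Isolate replicate 1, and 8300409 and 8412117 in replicate 2. The fewest reads in a listed island were 22 to 31, depending on the library.

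**Figure D1:**
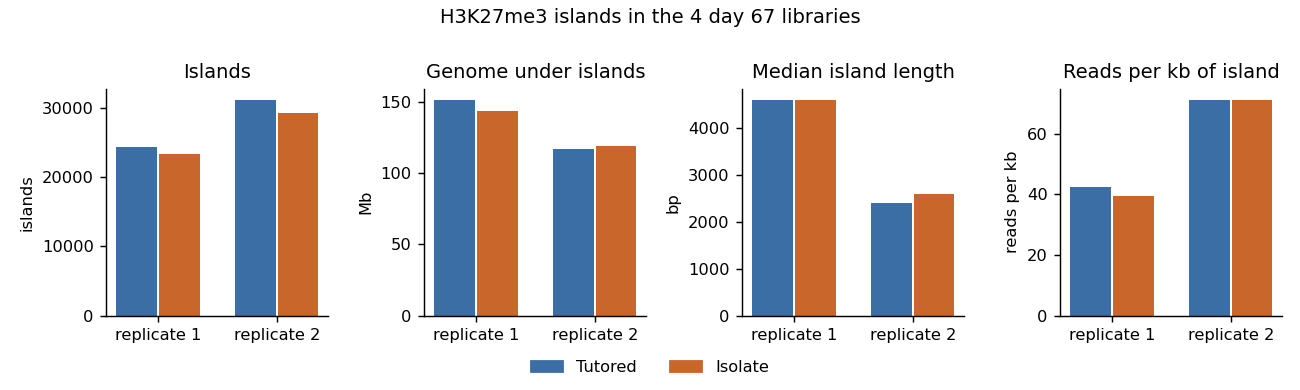
Number of islands, covered length in Mb, median island length in bp and reads per kb of island in each of the 4 libraries; each bar is 1 library, grouped by replicate number, and all axes start at 0. Bars of the same replicate stand close together, and replicate 2 has more islands (31185 and 29322) that are shorter and denser than those of replicate 1 (24321 and 23375).

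Most H3K27me3 regions were found in both groups. Overlapping or touching islands of the 4 libraries were merged into 30711 regions, and 14211 of them (46.3%) held an island in every library. In replicate 1, 71.5% of the regions called in either group were called in both, 2712 were called in Isolate alone and 4063 in Tutored alone. Replicate 2 also had 71.5% in both, with 3209 in Isolate alone and 4315 in Tutored alone. Tutored had more regions of its own in each replicate, and its island lists were also the longer ones.

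Regions called in 1 group alone were small and weak. In replicate 1 their islands had a median of 3200 bp and 86 reads in Isolate and 3000 bp and 85 reads in Tutored, while regions called in both groups held a median of 181 and 199 reads. In replicate 2 the median was 1400 bp in both groups, with 65 reads in Isolate and 66 in Tutored. They took up 6.44% (Isolate) and 8.86% (Tutored) of the covered length in replicate 1 and 4.83% and 6.42% in replicate 2.

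Which group a region was called in alone in 1 replicate told little about the group in the other replicate. Of the 2712 Isolate-only regions of replicate 1, 10.5% were Isolate-only again in replicate 2, 13.3% were Tutored-only there, 28.6% were called in both groups and 47.6% in neither. The 4063 Tutored-only regions of replicate 1 were Tutored-only again in 12.8% of cases, Isolate-only in 9.87%, in both groups in 35.0% and in neither in 42.3%. Regions were thus Isolate-only in replicate 2 about as often after an Isolate-only call (10.5%) as after a Tutored-only call (9.87%). They were Tutored-only there in 12.8% of cases after a Tutored-only and 13.3% after an Isolate-only call. Among all 30711 merged regions, 10.4% were Isolate-only and 14.1% Tutored-only in replicate 2. These shares include regions uncalled in replicate 1, which made up 1803 of the 3209 Isolate-only and 2655 of the 4315 Tutored-only regions. Over both replicates this left 285 regions that were Isolate-only and 521 that were Tutored-only, or 0.928% and 1.70% of all merged regions. With the same number of islands taken from every library the counts were 329 and 417. Both counts rest on all 4 libraries. Without Tutored replicate 1 they were 1005 and 3176, without Tutored replicate 2 1060 and 2239, without Isolate replicate 1 2088 and 1299, and without Isolate replicate 2 1576 and 1944. A group with a library left out then needs 1 library for a group-only call and the other group 2, which favours the former. The larger Tutored-only counts without a Tutored library are therefore in part fixed by the rule. Where the rule favoured Isolate, Tutored-only regions were fewer without Isolate replicate 1 and more without Isolate replicate 2. Tutored-only was the larger set with all 4 libraries and with equal island numbers.

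**Figure D2:**
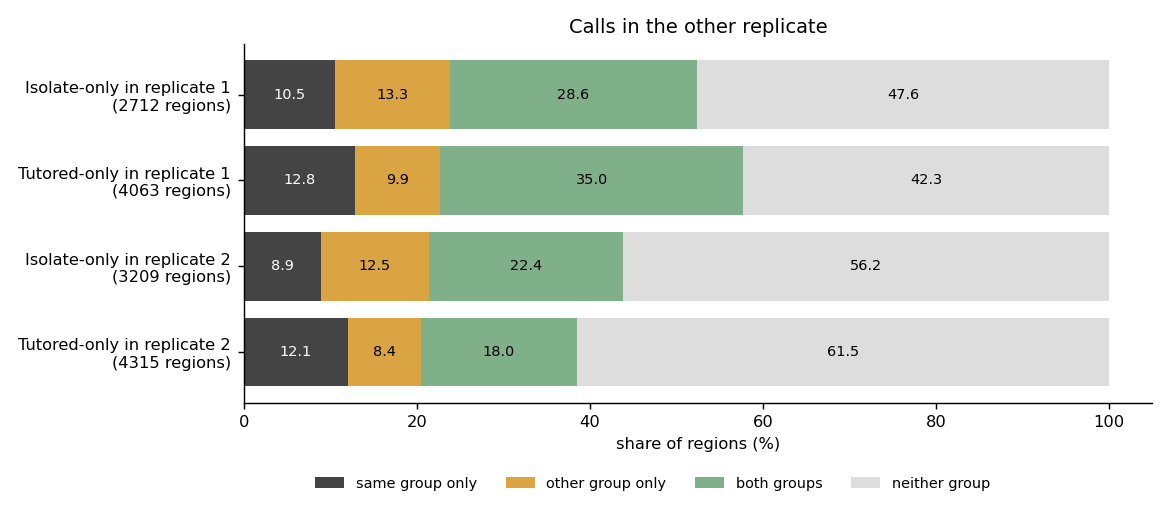
Regions called in 1 group alone in a replicate, by what was called there in the other replicate, as shares of all such regions in percent. The share called in the same group alone ranges from 8.88% to 12.8%, and the largest share in each bar is of regions called in neither group.

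The strongest Isolate-only regions lay on 5 chromosomes, and none of them carried H3K4me3 or Pol II, the RNA polymerase of protein-coding genes. The first, on chromosome Z at 19099401 to 19106200, held 205 reads in Isolate replicate 1 and 193 in replicate 2 over 6.80 and 5.00 kb. Next was chromosome 6 at 11719601 to 11725000 with 184 and 185 reads, 67.4 kb from the nearest region shared by all libraries. Neither had an island at day 32. Chromosome 4 at 13856601 to 13865000 held 170 and 165 reads, and chromosome 2 at 144808201 to 144814000 held 155 and 210. The fifth, on chromosome 1 at 18126401 to 18132000, held 167 and 152 reads and lay 1.00 kb from a shared region. The regions on chromosomes 4, 2 and 1 also had islands at day 32, over 1.00, 4.00 and 2.80 kb. The regions on Z and chromosome 4 carried H3K9me3, a mark of heterochromatin, in all 4 day 67 libraries of that mark. In both Tutored libraries no island was listed at any of the 5, which leaves the read number there unknown rather than 0.

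The strongest Tutored-only regions also had no H3K4me3 in any library. Chromosome 12 at 11679201 to 11685800 held 207 reads in Tutored replicate 1 and 236 in replicate 2, and had no island at day 32 but an H3K9me3 island of 4.40 kb in Tutored replicate 1. On chromosome 1, the interval 68961601 to 68968400 held 189 and 267 reads, and 113349201 to 113357600 held 185 and 196. Both were called at day 32, over 6.80 and 8.00 kb. Chromosome 3 at 71174801 to 71181200 held 185 and 216 reads and was covered over 2.20 kb at day 32. The fifth, on chromosome 20 at 591001 to 597600, stood alone, 170 kb from the nearest shared region. It held 176 and 341 reads, had an island over its whole 6.60 kb at day 32, and was covered by Pol II over 6.60 kb in Isolate replicate 2 alone.

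Input reads were listed per island in replicate 2 only, and the labels pool the input of both groups. The median was 12.5 input reads per kb in Isolate-only islands of Isolate and 15.0 in Tutored-only islands of Tutored, against 14.1 and 14.4 in the shared regions of the same libraries. The 95th percentiles were 19.4 and 23.6, against 22.5 and 22.6 in the shared regions. The 10 named regions had between 10.9 and 18.5 input reads per kb.

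**Figure D3:**
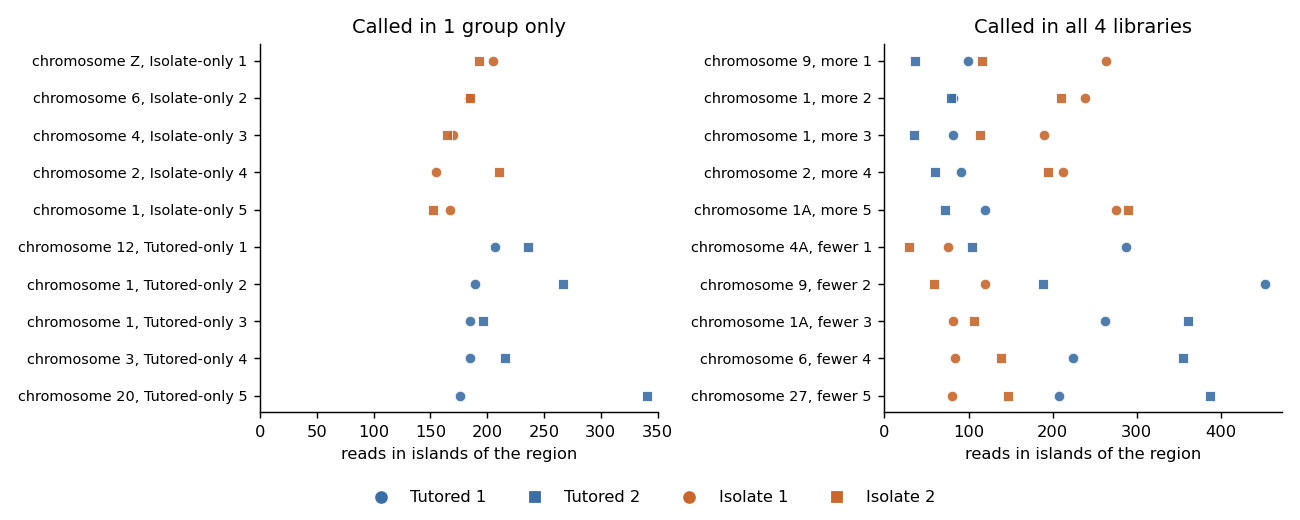
Reads in the islands of each named region, on a linear axis from 0; circles are replicate 1 and squares replicate 2, blue Tutored and orange Isolate. Left, regions called in 1 group only, where the other group has no listed value, and right, regions called in all 4 libraries with the largest difference of the same sign in both replicates.

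Tutored-only regions overlapped day 32 islands more often than Isolate-only regions did, except where a Tutored library was left out. Leaving out a library sets regions called in 1 library of a group against regions called in 2 of the other. An island of the P32 library overlapped 162 of the 521 Tutored-only regions, or 31.1% (exact binomial 95% interval 27.1% to 35.3%), and 45 of the 285 Isolate-only regions, or 15.8% (11.8% to 20.6%). These intervals cover counting error only, and neighbouring regions are not independent. The same order held within each replicate, with 32.2% of Tutored-only and 26.8% of Isolate-only regions in replicate 1 and 24.3% and 19.4% in replicate 2. With the same number of islands taken from every library the shares were 39.6% and 28.9%, and with 50% cover required for a call 48.0% and 34.9%, so the ratio between the groups was smaller in both settings. Among regions shared by all libraries, 83.8% were called at day 32. Among the 7467 regions called in 1 library, with a median of 1.80 kb, the share was 15.9%, close to that of Isolate-only regions. On the large autosomes, those of at least 50 Mb, 20.7% (16.1% to 26.1%) of Tutored-only and 10.2% (6.04% to 15.8%) of Isolate-only regions had a day 32 island. On the small chromosomes, under 20 Mb, the shares were 58.9% of 95 and 55.0% of 20 regions, and on Z 10.5% of 38 and 8.82% of 34, with wide intervals that overlapped. Among regions with at least 80 reads in both libraries, 38.3% (31.3% to 45.7%) of Tutored-only and 27.4% (18.7% to 37.5%) of Isolate-only regions had one. Among those with fewer reads in a library, the shares were 27% (22.3% to 32.1%) and 10% (6.13% to 15.2%). Leaving out a library moved these shares and, in some cases, turned them. Without Tutored replicate 1 the shares were 18.8% of Tutored-only and 24.2% of Isolate-only regions, and without Tutored replicate 2 they were 19.9% and 42.1%. Without Isolate replicate 1 they were 39.6% and 16.0%, and without Isolate replicate 2 48.1% and 14.3%. In each case the group with 1 library left had the lower share. Of the length covered by islands at day 32, Tutored and Isolate covered 81.3% and 78.4% in replicate 1 and 77.0% and 76.8% in replicate 2. What sets the difference was not tested.

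Small chromosomes held 20 Isolate-only and 95 Tutored-only regions, or 0.345% and 1.64% of their 5800 merged regions. The large autosomes held 167 and 270, or 1.08% and 1.74%, and Z held 34 and 38, or 1.90% and 2.12%. Within replicate 1 the small chromosomes had 308 Isolate-only and 678 Tutored-only regions, and within replicate 2 they had 455 and 653. Both replicates thus had more Tutored-only calls on the small chromosomes, as they did over all regions. The Isolate-only and Tutored-only counts over all regions were 2712 and 4063 in replicate 1 and 3209 and 4315 in replicate 2. Without Isolate replicate 1 the order over both replicates turned, with 330 Isolate-only and 209 Tutored-only regions there.

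Island reads differed by chromosome class in small amounts. Small chromosomes held 23.9% of the island reads of Tutored and 22.8% of those of Isolate in replicate 1, and 28.7% and 28.3% in replicate 2. Z held 5.27% and 5.71% in replicate 1 and 4.61% and 4.67% in replicate 2. The median Isolate minus Tutored difference in reads, given as the log2 of reads scaled to library size (CPM), in shared regions was -0.06 and -0.02 in replicates 1 and 2 on small chromosomes. It was 0.08 and 0.05 on Z, 0.03 and 0.02 on the large autosomes and -0.02 in both on the middle autosomes. Over all shared regions it was 0.00 in both replicates, a value largely set by the scaling, which used these same regions. A change of the mark by the same factor in all of them could therefore not show in CPM or in the edgeR folds. Both replicates had the same sign in every class, and for the read shares the replicates of a group lay further apart than the groups. Of 32 chromosomes with at least 100 kb under islands in every library, 31 had less cover in Isolate in replicate 1 and 12 in replicate 2, and the exception in replicate 1 was Z. What sets the order by chromosome class was not tested.

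**Figure D4:**
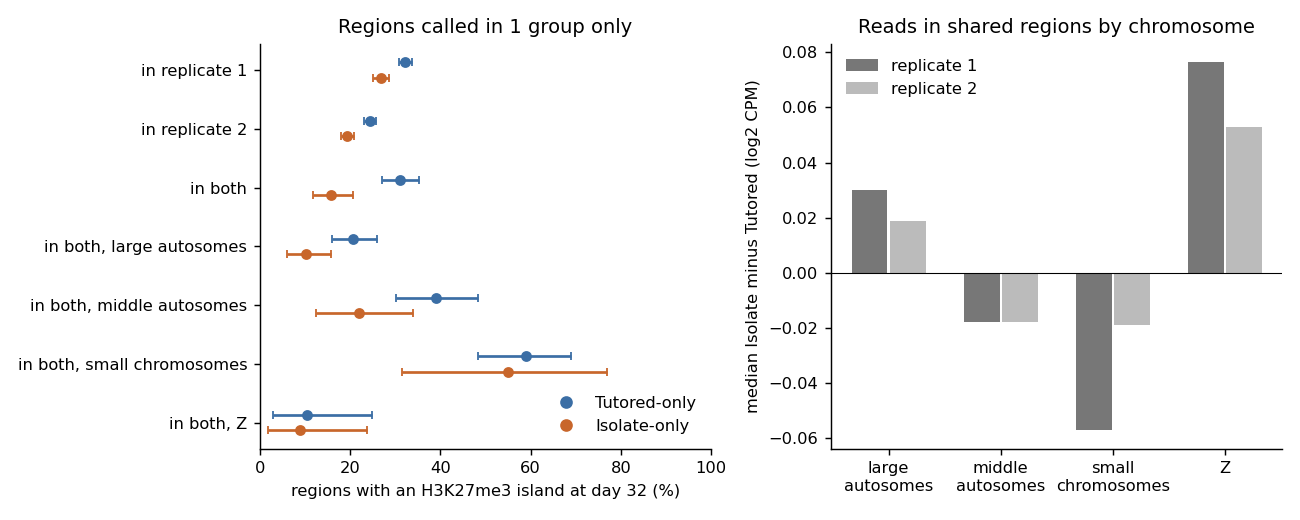
Left, share of regions called in 1 group only that overlap an H3K27me3 island at day 32, in percent, with exact binomial 95% intervals that cover counting error only; right, median Isolate minus Tutored difference in reads of shared regions (log2 CPM) by chromosome class and replicate. Tutored-only regions called in both replicates stand at 31.1% and Isolate-only ones at 15.8%, and the medians on the right lie between -0.06 and 0.08.

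Other marks were rarer at group-only regions than at shared ones. H3K9me3 was called in all 4 of its libraries at 13.3% of Isolate-only and 11.9% of Tutored-only regions, against 29.3% of shared regions. Pol II in Isolate overlapped 4.91% of Isolate-only and 4.41% of Tutored-only regions in replicate 1, against 12.8% of shared regions, and 3.51% and 3.26% in replicate 2, against 14.1%. Pol II in Tutored overlapped 3.86% and 3.84% in replicate 1, against 10.2%, and 2.81% and 1.92% in replicate 2, against 5.55%. An H3K4me3 island was present in any library at 19 regions of each kind, or 6.67% of Isolate-only and 3.65% of Tutored-only regions, against 22.1% of shared regions. Shared regions are longer, with a median of 7.60 kb against 3.60 and 3.40 kb. Of the group-only regions, 48.8% of Isolate-only and 49.9% of Tutored-only, lay within 10 kb of a shared region. Among all regions called in 1 library, with a median of 1.80 kb, the share was 41.6%. Other marks were also rarer at these than at shared regions. H3K9me3 was called in all 4 of its libraries at 8.64% of them and H3K4me3 in any library at 6.84%. Pol II overlapped 5.29% and 2.84% of them in Tutored and 6.27% and 5.99% in Isolate.

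Domain length gave no called difference where a region was present in all 4 libraries. No region of the 14211 differed in covered length between Isolate and Tutored by limma at a Benjamini-Hochberg adjusted p of 0.05, or 0.00% called. At an unadjusted p under 0.05 there were 204, of which 79 were longer in Isolate, and the median standard error of a log2 length difference was 0.27. This fit had no replicate term, so the gap between replicates counted as spread. Its 0 calls do not show that the groups were alike. With the replicate number as a block limma also called 0 regions, with 475 of the 14211 at an unadjusted p under 0.05. Both 204 and 475 lay below the share of 0.05 that evenly spread p-values would give. In replicate 1 Isolate was longer at 5391 regions and shorter at 7061, and in replicate 2 it was longer at 6736 and shorter at 5234. The median log2 difference was 0.00 in both replicates. Length was at least 2-fold higher in Isolate in both replicates at 39 regions (0.274%) and at least 2-fold lower at 47 (0.331%), while 83 regions had 2-fold differences of opposite sign.

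Domain edges had a median shift of 200 bp in every pair of libraries compared. In 7539 regions each library had exactly 1 island, which gives 15078 edges. Within replicate 1 the edges of Isolate and Tutored were identical in 33.2% of cases and within 200 bp, 1 window of the island caller, in 59.6%. In replicate 2 the shares were 45.5% and 67.0%. Between replicates of a group they were lower, with 29.7% identical in Tutored and 31.3% in Isolate. Edges more than 2 kb apart made up 6.91% and 4.83% between the groups in replicates 1 and 2, against 10.7% and 9.72% between the replicates of Tutored and of Isolate. The mean shift of an Isolate edge outward was -62.4 bp in replicate 1 and 34.1 bp in replicate 2. How often a region was split into pieces also followed the replicate. A single island spanned the called part in 82.2% (Tutored) and 80.6% (Isolate) of shared regions in replicate 1 and in 66.6% and 69.2% in replicate 2.

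Reads in the shared regions gave no called difference either. The quasi-likelihood test of edgeR called 0 of 14211 regions at an adjusted p of 0.05, or 0.00% called, and 99 (0.697%) had an unadjusted p under 0.05, of which 42 were higher in Isolate. DESeq2 also called 0, with 92 at an unadjusted p under 0.05. The median standard error of a log2 fold was 0.34. With the replicate number as a block it was 0.23, and edgeR still called 0 regions. In that fit 689 of the 14211 had an unadjusted p under 0.05. The main fit had no replicate term, so the gap between replicates counted as spread. Evenly spread p-values would put a share of 0.05 of all regions under that threshold. The 689 regions of the blocked fit came close to this share, while the 0.697% of the main fit lay far below it. The 0 calls therefore do not show that the groups were alike. The reads of Isolate and Tutored differed at least 2-fold in 3.43% of regions in replicate 1 and 4.92% in replicate 2. At 21 regions (0.148%) Isolate was at least 2-fold higher in both replicates and at 20 (0.141%) at least 2-fold lower in both. At 34 regions both differences were at least 2-fold but of opposite sign. At any size, the signs were opposite at 6981 regions, while Isolate was higher in both replicates at 3551 and lower in both at 3679. Across regions the replicate differences correlated at r = 0.03, a description only, since regions of a library share its depth and are not independent.

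**Figure D5:**
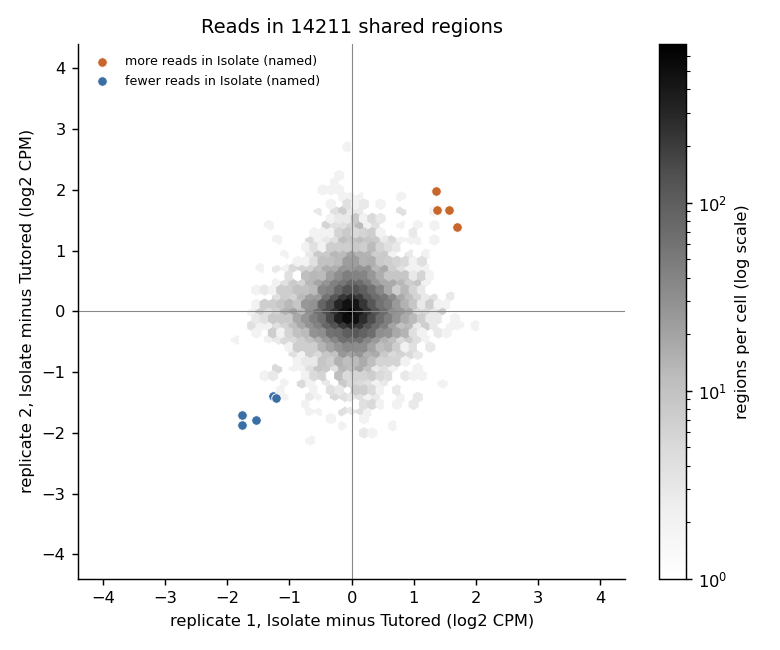
Isolate minus Tutored difference in reads (log2 CPM) of the 14211 shared regions in replicate 1 (horizontal) and replicate 2 (vertical); the grey scale gives the number of regions per hexagon on a log scale. The cloud is centred on 0, which the scaling to these regions largely sets, and has no slant. The coloured points are the named regions with the most and the fewest reads in Isolate relative to Tutored. Of these, a pair with more reads overlap at about 1.38 and 1.67.

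Differences in reads went with differences in how much of a region was called. They correlated across shared regions at r = 0.87 in replicate 1 and 0.89 in replicate 2, where both come from the same islands. Reads per covered kb had a spread of 0.23 and 0.27 (SD of the log2 difference), against 0.40 and 0.45 for reads. A 2-fold difference in reads per covered kb in both replicates, in the same direction, was found in 1 region. With covered length as an offset, edgeR again called 0 regions, with 44 at an unadjusted p under 0.05.

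The regions with the largest difference of the same sign in both replicates spanned 5.40 to 17.6 kb. On chromosome 9 at 23589401 to 23598800, Tutored held 99 and 36 reads in replicates 1 and 2 and Isolate 263 and 116. Isolate was higher within each replicate, by 1.56 and 1.66 on the log2 CPM scale, while the groups overlapped in CPM because the replicates lay apart. The edgeR log2 fold was 1.59 (SE 0.83, unadjusted p = 0.107), and with the replicate block 1.61 (SE 0.27, unadjusted p = 0.00139, adjusted p = 0.977). Regions were chosen here for a large difference within each replicate, which the block rewards, so a small blocked p is fixed by the choice. A pair of regions on chromosome 1, which do not adjoin, followed. At 70765201 to 70774600 the reads were 82 and 79 in Tutored and 238 and 210 in Isolate, with no overlap of the groups and with H3K9me3 in all 4 of its libraries. At 70559401 to 70567800, they were 81 and 35 in Tutored and 190 and 113 in Isolate. Neither of the pair was called at day 32.

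On chromosome 2 at 87857201 to 87866200, Tutored held 91 and 60 reads and Isolate 212 and 194. On chromosome 1A at 72839001 to 72849200, Tutored held 119 and 72 reads and Isolate 275 and 290, with edgeR log2 fold 1.59 (SE 0.48, unadjusted p = 0.0189). Islands there spanned 4.20 and 2.00 kb in Tutored and 10.2 and 9.00 kb in Isolate. Both regions had no H3K4me3, H3K9me3 or Pol II in any day 67 library. All 5 regions had an adjusted p of 1.00 by edgeR.

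Among the regions with fewer reads in Isolate, chromosome 1A at 3947801 to 3959600 had the smallest unadjusted p. It held 262 and 361 reads in Tutored and 81 and 106 in Isolate, with islands over 9.60 and 9.00 kb against 2.80 and 2.40 kb. The edgeR log2 fold was -1.66 (SE 0.33, unadjusted p = 0.00284, adjusted p = 1.00). H3K9me3 covered 10.8 and 6.20 kb of it in Tutored and 11 and 6 kb in Isolate, so the lengths of that mark overlapped between the groups. Chromosome 6 at 1796201 to 1804600 held 224 and 355 reads in Tutored and 84 and 138 in Isolate, with no other mark in any day 67 library. Chromosome 27 at 1478801 to 1484200 held 207 and 387 in Tutored and 80 and 147 in Isolate. Pol II was called there in all 4 of its libraries, over 1.40 and 2.80 kb in Tutored and 3.00 and 3.20 kb in Isolate.

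The other 2 regions with fewer reads in Isolate differed more between replicates. On chromosome 4A at 7559001 to 7569400, Tutored held 287 and 104 reads and Isolate 76 and 29, and the groups overlapped in CPM. On chromosome 9 at 2512201 to 2529800, Tutored held 452 and 189 and Isolate 120 and 59. Islands of Tutored spanned 17.6 kb in replicate 1 and 3.60 kb in replicate 2 there, against 3.40 and 1.60 kb in Isolate. Neither was called at day 32. Of all 14211 shared regions, 1116 (7.85%) had CPM higher in both Isolate libraries than in both Tutored libraries, and 1229 (8.65%) had them lower.

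Some regions stood out by length. On chromosome 5 at 62165801 to 62176000, islands spanned 8.40 and 5.40 kb in Tutored and 1.60 and 1.40 kb in Isolate, a limma log2 difference of -2.17 (SE 0.32, unadjusted p = 0.00635, adjusted p = 1). Pol II covered 7.60 and 9.40 kb of this region in Tutored and 9 and 10 kb in Isolate, and the day 32 library had H3K27me3 over 9.40 kb. On chromosome 1 at 16205401 to 16213200 they spanned 3.60 and 5.60 kb in Tutored and 1.00 and 1.40 kb in Isolate. In the other direction, chromosome 1A at 23063801 to 23074000 carried H3K4me3 in all 4 libraries, over 4.40 and 5 kb in Tutored and 4.20 and 4.80 kb in Isolate. Pol II was called there in both Isolate libraries, over 1.60 and 1.40 kb, and in neither Tutored library. Over all shared regions Pol II was also called more often in Isolate, at 12.8% and 14.1%, than in Tutored, at 10.2% and 5.55%. At the region on chromosome 1A, H3K9me3 was called over 1.40 kb in Tutored replicate 2 and over 1 and 1.40 kb in Isolate. Its H3K27me3 islands spanned 1.40 kb in both Tutored libraries and 4.80 and 7.00 kb in Isolate, a limma log2 difference of 2.05 (SE 0.28, unadjusted p = 0.00498, adjusted p = 1). Reads there were 57 and 130 in Tutored and 130 and 300 in Isolate. Chromosome 11 at 3592401 to 3603400 had islands over 2.80 and 2.40 kb in Tutored and 8.60 and 10 kb in Isolate, with 91 and 157 against 246 and 410 reads. These regions were chosen for a large length difference of the same sign in both replicates. Chromosome 4A at 7559001 and chromosome 2 at 87857201 were also among the most changed in length. Input in replicate 2 was 25.0 reads per kb in Tutored on chromosome 1A (Isolate 10.6) and 25.0 in Isolate on chromosome 5 (Tutored 19.6). The 95th percentiles in shared regions were 22.6 (Tutored) and 22.5 (Isolate). In the other regions named for length, input lay between 5.17 and 17.5 reads per kb.

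Long merged regions were present in every library. All 123 merged regions of at least 50 kb and 99.8% of the 1264 regions of 20 to 50 kb were called in all 4 libraries, against 7.38% of the 6907 regions under 2 kb. This follows in part from the construction, because the length of a region is the union over libraries and 1 bp of overlap counts as a call. The spread of the Isolate minus Tutored difference in reads was 0.09 and 0.14 (SD, log2 CPM, replicates 1 and 2) in regions of at least 50 kb and 0.20 and 0.28 in those of 20 to 50 kb. It was 0.47 and 0.52 in regions of 5 to 10 kb and 0.29 in both replicates in those under 2 kb, so it did not fall steadily with length. Median differences in the longest class were -0.02 and 0.02.

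The 3 regions with the most reads each spanned over 100 kb after merging, in replicate 2 as several islands. The longest single islands anywhere were 153400 and 97200 bp in Tutored replicates 1 and 2 and 117000 and 78400 bp in Isolate. Chromosome 4A at 216201 to 336000 held 11419 and 16834 reads in Tutored and 9722 and 18151 in Isolate, or 1982 and 2264 CPM against 1877 and 2400. Its edgeR log2 fold was 0.01 (SE 0.18, unadjusted p = 0.955). H3K9me3 lay over 62.2 to 83.8 kb of it in the 4 libraries of that mark. Chromosome 14 at 8526201 to 8712400 held 1772 and 2571 CPM in Tutored and 1760 and 2313 in Isolate (log2 fold -0.09, SE 0.24, unadjusted p = 0.714). It also carried H3K4me3 and Pol II in all 4 libraries of each. Chromosome Z at 65294401 to 65428800 held 1684 and 1750 CPM in Tutored and 1793 and 1874 in Isolate (log2 fold 0.09, SE 0.14, unadjusted p = 0.516). CPM did not overlap between the groups there, with a difference of 0.09 and 0.10 within replicates 1 and 2. H3K9me3 covered 78.6 to 103 kb of it. All 3 merged regions held islands at day 32, over 116, 185 and 109 kb.

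Regions with H3K4me3 in all 4 of its day 67 libraries numbered 2128 of the 14211 shared regions. Of these, 741 had no Pol II in any day 67 library and 327 had it in all 4, so the class is not one of silent regions alone. The median Isolate minus Tutored difference of their H3K27me3 reads was 0.01 (log2 CPM) in replicate 1 and 0.04 in replicate 2. Isolate was higher in both replicates at 640 of them (30.1%) and lower in both at 442 (20.8%), against 25.0% and 25.9% of all shared regions. Regions with no other mark in any day 67 library went the other way, with 808 of 3521 higher in both replicates (22.9%) and 998 lower in both (28.3%), and medians of -0.01 and -0.03. At the 4157 regions with H3K9me3 in all 4 of its libraries the shares were 26.5% and 24.8%. Among these classes 0.470% of the regions with H3K4me3, 0.767% of those with no other mark and 0.529% of those with H3K9me3 had an unadjusted edgeR p under 0.05, against 0.697% of all shared regions. The classes also differed in length, with a median of 9.60 kb for regions with H3K4me3 and 5.00 kb for those with no other mark. No test of the difference between classes was made, since regions of a library are not replicates. As shares of all island reads, regions with H3K4me3 in all 4 libraries held 20.8% and 24.1% in Tutored and 21.1% and 24.7% in Isolate.

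Differences in H3K27me3 showed at most weak correlations with those of the other marks at the same regions. Across the 2128 regions with H3K4me3 the Isolate minus Tutored differences of H3K27me3 and H3K4me3 reads correlated at r = 0.07 in replicate 1 and 0.00 in replicate 2. For the 4157 regions with H3K9me3 the values were 0.00 and 0.04, and for the 534 regions with Pol II in all 4 libraries -0.08 and 0.07. These are descriptions across regions that share libraries. The replicate 1 lists of H3K4me3 carry in their deposited names the letter of the opposite group, and the labels were followed, so the sign of the first of these values rests on the labels.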

How the data were processed

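Chromatin of dissected auditory forebrain was crosslinked, sheared, precipitated and sequenced, per the labels' protocols. Per the submitters' processing notes the tools were BWA 0.6.1, SICER 1.1 and MACS; their roles and order are not stated. Per the deposited names, islands were called with 200 bp windows, 600 bp gaps and an FDR of 1E-5, on a genome build not given in the sources used here. Chromosome classes follow the end of the last island on each chromosome. Coordinates are those of the deposited islands, written 1-based. The authors called islands per library and deposited whole-number counts of ChIP reads per island, and in replicate 2 also counts of input reads. Their fold, p and FDR columns were not used. The names also hold a term that may stand for a normalization of unique reads, which no label explains. Total depth is unknown, and reads outside islands are not listed, so an uncalled region has an unknown count. The islands of replicate 1 and 2 differ in density by more than the groups do.

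Islands that overlapped or touched were merged over the 4 libraries, and a region was called in a library by an overlap of 1 bp. Reads in regions called in all 4 went into the robust quasi-likelihood test of edgeR 4.0.16 with TMM factors, and log2 covered length into limma 3.58.1 (trend, robust), both in R 4.3.3 with Benjamini-Hochberg adjustment. CPM used TMM-scaled reads in these regions. Standard errors of edgeR folds were derived from the fold and F. DESeq2 1.42.0 was an alternative. The code of both fits was tested on simulated data with an assumed spread, which does not measure the power of the design. Shares have exact (Clopper-Pearson) 95% intervals.

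Named regions were the 5 group-only regions per group with the most reads in the weaker library, the 5 shared regions per direction with the largest smaller-replicate difference in reads (mean of at least 50 reads), the 3 per direction for length (cover of at least 2 kb) and the 3 with the most reads. Equal replicate numbers were treated as pairs in the differences within replicates and in the replicate block. The main edgeR and limma fits had group as the only term. Pairs were used because the labels pool the input of both groups within a number. Deviations of same-numbered libraries also correlated across regions at r = 0.61 for reads. The comparison and lists were chosen with earlier results of these data known. The planned gene and marker lists were not used, for want of an annotation of the build.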

Additional observations from a re-analysis of the deposited data

How the results depend on the processing

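edgeR and limma called 0 regions under every alternative run: RLE factors, DESeq2 (reads only), a filter at 50 mean reads, a wider set with calls in 2 or more libraries and 0 elsewhere, a length offset, islands within 1000 bp merged, a mean cover of at least 2 kb, quantile normalization, and each library left out (0 to 0). A lone library is then assumed to vary like the other group. With the replicate block, edgeR called 0 and limma 0 regions, with 689 and 475 at an unadjusted p under 0.05, and it changed no other call. Neither count exceeded the share of 0.05 that evenly spread p-values would give. Leaving out a library turns a group-only count into one that needs a single library of a group, so the counts moved to 1005 to 2088 (Isolate-only) and 1299 to 3176 (Tutored-only). The Isolate-only and Tutored-only counts were 245 and 435 with islands within 1000 bp merged, 370 and 589 with 50% cover and 282 and 498 with islands of at least 50 reads. Isolate minus Tutored means of the library measures ranged, with a library left out, from -4836.5 to 2027.5 islands, -20.2 to 14.6 Mb, -17.4 to 14.1 reads per kb, -1000 to 1200 bp of median length and -2.61 to 2.402 percentage points of cover in long domains. With equal island numbers the covered length was 2.29 Mb higher in Isolate, and with islands within 1000 bp merged the share in long domains was 0.198 points higher, where the deposited islands had it lower. Island numbers themselves cannot be compared with equal numbers. The excess of day 32 overlap in Tutored-only regions ran from -22.2 to 33.8 points with a library left out, turning without Tutored replicate 1 (-5.38) and replicate 2 (-22.2), where regions called in 1 Tutored library are set against regions called in 2 Isolate libraries. The excess on small chromosomes ran from -121 to 411 regions. Regions named for a difference in reads or length were chosen for the same sign in both replicates. The choice favours their sign under a left-out library, so the kept sign is no support. Their size moved: the log2 fold ran from 0.49 to 2.76 at chromosome 9 (23589401) and from -3.05 to -0.61 at chromosome 4A (7559001). Of the regions with the most reads, chromosome 4A at 216201 turned without Tutored replicate 1 (-0.08) or Isolate replicate 2 (-0.17; range -0.17 to 0.18), and chromosome 14 at 8526201 without Tutored replicate 2 (0.21) or Isolate replicate 1 (0.09; range -0.34 to 0.21). The alternatives for day 32 overlap and small chromosomes, and the left-out libraries for the library measures, were chosen after seeing the data. The cause of these changes was not tested.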
